A study of Danio rerio with 4 samples.

Results

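Enzymes that make and break down pyrimidine nucleotides, and enzymes that supply the deoxynucleotides for DNA, were measured in whole zebrafish embryos with and without added glucose. The genes were taken by symbol from the array's platform annotation, after its symbols were updated by gene identifier. They are cad, dhodh, umps, ctps1a, tyms, dhfr, rrm1, rrm2, tk1 and dpydb. Of these 10 genes, 8 were found, among 8793 named on the array. They lie on 10 of the 15502 probe sets that are not controls, and dhfr and rrm2 have no probe set under that symbol here and were not analysed. Control embryos were compared with embryos kept in 1% glucose in E3, the embryo medium, from 12 to 36 hours post fertilisation (hpf), and RNA of whole embryos was taken at 36 hpf. Each group had 2 biological replicates with 1 Affymetrix array each. The strain, the number of embryos in a sample and whether the replicates came from separate clutches are not given in the sources used here. The p-values therefore rest on a spread between arrays that may be technical.

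Cells build pyrimidines from small precursors in a chain that ends in UMP, and CTP is then made from UTP. Ribonucleotide reductase turns ribonucleotides into deoxynucleotides, thymidylate synthase makes the thymine nucleotide with a folate cofactor that dihydrofolate reductase regenerates, and thymidine kinase recovers thymidine. Dihydropyrimidine dehydrogenase opens the breakdown of uracil and thymine. These roles are known mainly from the mammalian enzymes, and growing embryos draw on the synthesis side for RNA and DNA.

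The breakdown enzyme gene dpydb rose 2.22-fold in glucose, the largest difference among the member probe sets. On the synthesis side the 4 UMP and CTP genes all had higher means in glucose, as did 50.2% of all tested probe sets, and 1 probe set, 1 of the 2 for cad, rose. The thymidylate and deoxynucleotide genes tyms, rrm1 and tk1 did not pass the test, with differences on both sides of 0. A gene is said to rise here only where its probe set had a Benjamini-Hochberg adjusted p under 0.10 over all 13628 tested probe sets in limma with a variance that follows intensity. That test placed 2 of the 10 member probe sets higher and 0 lower, where 1.29% of all tested probe sets were called higher and 0.712% lower. The variance used rests mostly on other probe sets of like intensity (15.6 prior degrees of freedom, against 2 from a probe set's own arrays). Limma without the intensity trend, which gives all probe sets one prior variance, called 0 of the 13628 probe sets in either direction (1152 had an unadjusted p under 0.05, 8.45%), so every rise named below rests on the trend.

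The arrays themselves were alike, with a median intensity between 170.9 and 175.2. All 10 member probe sets passed the filter on low values, and 9 of them were above 117.7 on all 4 arrays, the highest intensity among 17 tag probe sets, spots made to bind no fish transcript. Of 27 genes chosen to mark blood, nerve, muscle, skin, vessels, gut, lens and pigment cells, 19 were found, and 18 of these were above the tag level on all arrays. No lens gene was among those found, and a single gene stood for vessels. In RNA of whole embryos a change in the number of cells of a type and a change in RNA per cell cannot be told apart.

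**Figure D1:**
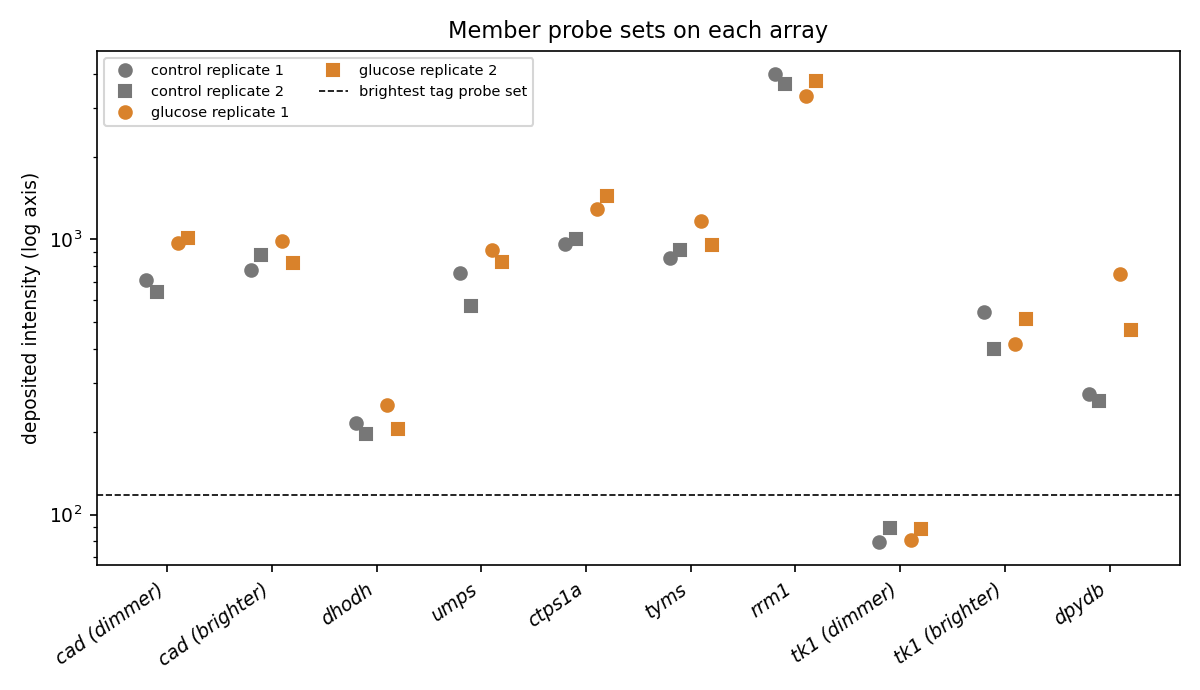
Deposited intensity (log axis) of each member probe set on the 4 arrays, with control arrays in grey and glucose arrays in orange, circles for replicate 1 and squares for replicate 2. The dashed line is the brightest tag probe set at 117.7; dpydb is at 273.6 and 257.7 in controls and at 746.5 and 466.9 in glucose, and the dimmer tk1 probe set lies below the line on all arrays.

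The opening enzyme of the chain is CAD, a fused protein that carries the early steps from glutamine and bicarbonate to dihydroorotate. Its gene has 2 probe sets, and they disagreed. The slightly dimmer one read 714.1 and 642.3 in the controls, against 968.2 and 1012 with glucose. Both glucose arrays lay above both controls, and the probe set rose 1.46-fold, or by 0.55 ± 0.14 (standard error) in log2 units (limma with trend, adjusted p = 0.075; without trend, adjusted p = 0.537). The brighter one read 771.1 and 876.0 in the controls, against 984.2 and 822.1 with glucose. There the groups overlapped, the difference was 0.13 with a 95% interval from -0.18 to 0.44, and the test was not passed (limma with trend, adjusted p = 0.802). Its difference turned on single arrays: it was 0.0003 and 0.26 with glucose replicate 1 or 2 left out, and 0.0381 and 0.22 with control replicate 1 or 2 left out. Under the convention that the brightest probe set stands for a gene, cad did not rise. The call on the dimmer probe set was lost with either glucose array left out and after quantile normalization (limma with trend, adjusted p = 0.114). Its difference stayed between 0.47 and 0.62 with each array left out.

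Dihydroorotate dehydrogenase, encoded by dhodh, works in the mitochondrial inner membrane and passes its electrons to the respiratory chain. Its probe set read 215.2 and 196.5 in the controls, against 249.7 and 205.4 with glucose. The groups overlapped and the log2 difference was 0.14, with a 95% interval from -0.29 to 0.56 (limma with trend, adjusted p = 0.858). The difference was -0.0017 and 0.28 with glucose replicate 1 or 2 left out, and 0.20 and 0.07 with control replicate 1 or 2 left out.

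UMP synthase, encoded by umps, completes UMP. The values were 757.9 and 571.5 in the controls, against 917.1 and 830.8 with glucose. Both glucose arrays were above both controls, but the controls differed from each other by 0.41 on the log2 scale, as much as the difference between the groups. That difference, 0.41 ± 0.16 (standard error), did not pass (limma with trend, adjusted p = 0.315). It was 0.61 without control replicate 1, where it passed (adjusted p = 0.0153), and 0.20 without control replicate 2, where it did not.

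CTP synthase, encoded by ctps1a, makes CTP from UTP and glutamine. Its probe set had intensities of 963.9 and 999.9 in the controls, against 1293 and 1441 with glucose, with a gap between the groups wider than either pair of replicates. The 1.39-fold difference, 0.48 ± 0.13 (standard error) in log2 units, lay just outside the threshold (limma with trend, adjusted p = 0.106; without trend, adjusted p = 0.563). The difference was 0.45 and 0.50 with control replicate 1 or 2 left out, and 0.55 and 0.40 with glucose replicate 1 or 2 left out. In all, ctps1a passed in 7 of 15 other settings, with a difference from 0.40 to 0.55. Of those 7 settings, 2 left 1 array in a group, where the spread within that group is not measured.

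Over these 4 genes, taken at their brightest probe sets, the median difference was 0.27 on the log2 scale, beside 0.0060 for the brightest probe sets of all 8164 named genes tested. 0 of the 4 passed, where 2.00% of all tested probe sets passed in either direction. Both glucose arrays were above both controls for 2 of the 4 genes, a pattern that 20.7% of all tested probe sets showed (20.3% showed the opposite).

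**Figure D2:**
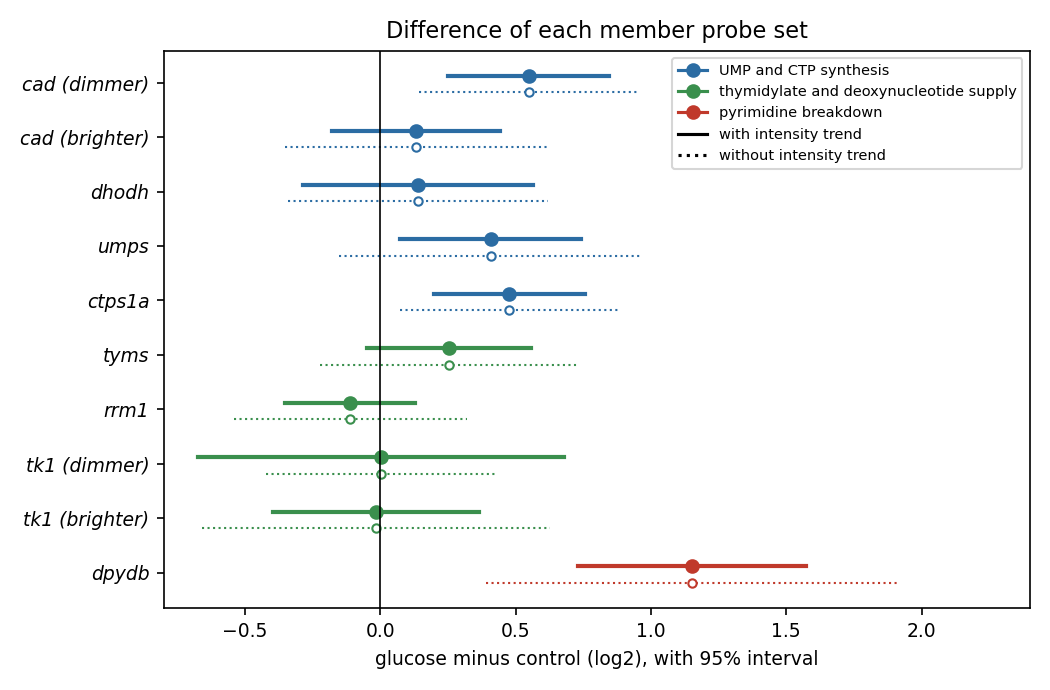
Glucose minus control on the log2 scale for each member probe set, with 95% intervals from limma with the intensity trend (filled points, solid lines) and without it (open points, dotted lines). The dpydb interval runs from 0.73 to 1.57 with the trend and from 0.39 to 1.91 without it. The intervals of the brighter cad probe set, dhodh, tyms, rrm1 and both tk1 probe sets hold 0 in both fits. That of umps holds 0 only without the trend.

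Among the genes that supply deoxynucleotides, tyms encodes thymidylate synthase, which turns dUMP into dTMP. It read 855.2 and 913.5 in the controls, against 1164 and 952.5 with glucose. Glucose replicate 2 was only a little above the higher control, and the log2 difference of 0.25 (95% interval from -0.05 to 0.55) did not pass (limma with trend, adjusted p = 0.539). Leaving out glucose replicate 1 gave 0.11, and leaving out glucose replicate 2 gave 0.40.

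The large subunit of ribonucleotide reductase, encoded by rrm1, carries the active site and the regulatory sites of the enzyme. Its values were 3988 and 3673 in the controls, against 3317 and 3780 with glucose, with overlapping groups. The difference was -0.11 with a 95% interval from -0.35 to 0.13 (limma with trend, adjusted p = 0.775). The upper end of that interval is 1.09-fold, and without the trend the interval ran from -0.54 to 0.32. Its difference was below 0 in all 15 other settings, but single arrays set its size: it was -0.02 and -0.21 with glucose replicate 1 or 2 left out, and -0.05 and -0.17 with control replicate 1 or 2 left out.

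The small subunit could be read only outside the chosen genes. The probe set named rrm2l, a gene for which the RefSeq table of assembly GRCz12tu lists rrm2 among its synonyms (as it does for rrm2b), had 5581 and 5564 in the controls, against 6212 and 6606 with glucose. It was looked at after its values were seen. Both glucose arrays were higher, by 0.20 on the log2 scale (95% interval from -0.01 to 0.42), and the test was not passed (limma with trend, adjusted p = 0.477). The p53-inducible small subunit rrm2b, named for that property in mammals, differed by 0.11 (adjusted p = 0.888).

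Thymidine kinase, tk1, is the cytosolic salvage enzyme whose level in mammals is tied to the S phase of the cell cycle. Its brighter probe set read 547.0 and 401.3 in the controls, against 417.6 and 513.7 with glucose. The 2 glucose values lie between the 2 control values, and the difference was -0.02 with a 95% interval from -0.40 to 0.37 (limma with trend, adjusted p = 0.986). Its sign turned with single arrays, from -0.24 without control replicate 2 to 0.21 without control replicate 1. The dimmer probe set lay between 79.7 and 89.4 on the 4 arrays, below the tag level. Its difference was 0.0010 with a 95% interval from -0.68 to 0.68 (limma with trend, adjusted p = 0.999).

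Dihydropyrimidine dehydrogenase, the first and rate-limiting enzyme of uracil and thymine breakdown, is abundant in the mammalian liver and is best known for inactivating the drug 5-fluorouracil. Its zebrafish gene dpydb had intensities of 273.6 and 257.7 in the controls, against 746.5 and 466.9 with glucose. The controls were close together, both glucose arrays were well above them, and the glucose arrays differed from each other by 0.68 on the log2 scale, the widest gap between replicates among the member probe sets. The rise was 1.15 ± 0.20 (standard error) on the log2 scale (95% interval from 0.73 to 1.57; limma with trend, adjusted p = 0.00537). It ranked 51 by p among the 13628 probe sets. Without the trend the standard error was 0.28 and the adjusted p was 0.528. An unmoderated t-test on its own arrays alone gave an unadjusted p of 0.0776. The within-group SD of dpydb was 0.341, above the 0.221 typical of the 4832 probe sets with a mean log2 from 7 to 9, so the trend gives dpydb a smaller error than its own arrays do. Leaving out glucose replicate 1 lowered the dpydb difference to 0.81, and leaving out glucose replicate 2 raised it to 1.49. The name of the probe set carries the suffix _s_at, which Affymetrix gives to sets whose probes can match transcripts of more than 1 gene, and it is the only probe set of dpydb.

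**Figure D3:**
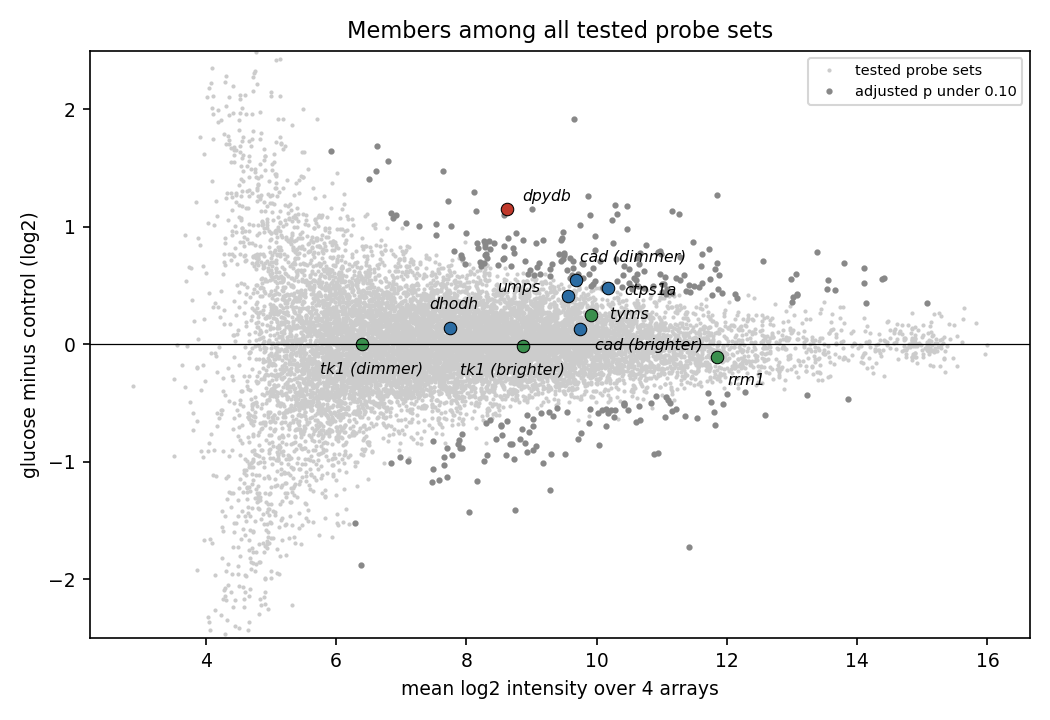
Glucose minus control (log2) against the mean log2 intensity over 4 arrays for all tested probe sets (light grey; 28 beyond 2.5 in size are not shown), with those past the threshold in darker grey and the members in colour (blue for UMP and CTP synthesis, green for thymidylate and deoxynucleotide supply, red for breakdown). The dpydb point, at 1.15, stands at the upper edge of the cloud. The dimmer cad probe set at 0.55 is past the threshold, ctps1a at 0.48 is just outside it, and the other members are not past it.

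Synthesis and breakdown were set against each other through their differences between the groups, since levels of different probe sets cannot be compared. The median difference over the 7 synthesis genes was 0.14 on the log2 scale, or 1.1-fold, and dpydb exceeded it by 1.01. Measured from the control mean, the synthesis median stood at 0.28 on glucose replicate 1 and 0.11 on glucose replicate 2, while dpydb stood at 1.49 and 0.81. Glucose replicate 1 was thus the higher of the pair in both measures, though not for each synthesis gene. For example, tyms stood at 0.40 on glucose replicate 1 and 0.11 on glucose replicate 2, and ctps1a at 0.40 and 0.55. Against each of the 9 synthesis probe sets in turn, dpydb had the larger difference, and the ratio of dpydb to the other probe set was higher on both glucose arrays than on both control arrays in 9 of 9 pairs. The pairs share the dpydb values and are not independent. The count largely restates the rise of dpydb, and it was not set beside the share of all tested probe sets.

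The excess of dpydb was smallest over the dimmer cad probe set, at 0.60 on the log2 scale with a 95% interval from 0.09 to 1.12, and ctps1a, at 0.68 with an interval from 0.17 to 1.18. It was largest over rrm1, at 1.26 with an interval from 0.78 to 1.75. The intervals combine the standard errors of the trend fit as if the probe sets varied independently, and they are not adjusted for the number of pairs. With the errors of the fit without trend, 6 of the 9 intervals lay above 0, and those for the dimmer cad probe set (-0.26 to 1.47), umps (-0.20 to 1.69) and ctps1a (-0.19 to 1.54) held 0. An exact permutation test of 2 against 2 arrays cannot give a two-sided p below 0.333, so none was used.

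**Figure D4:**
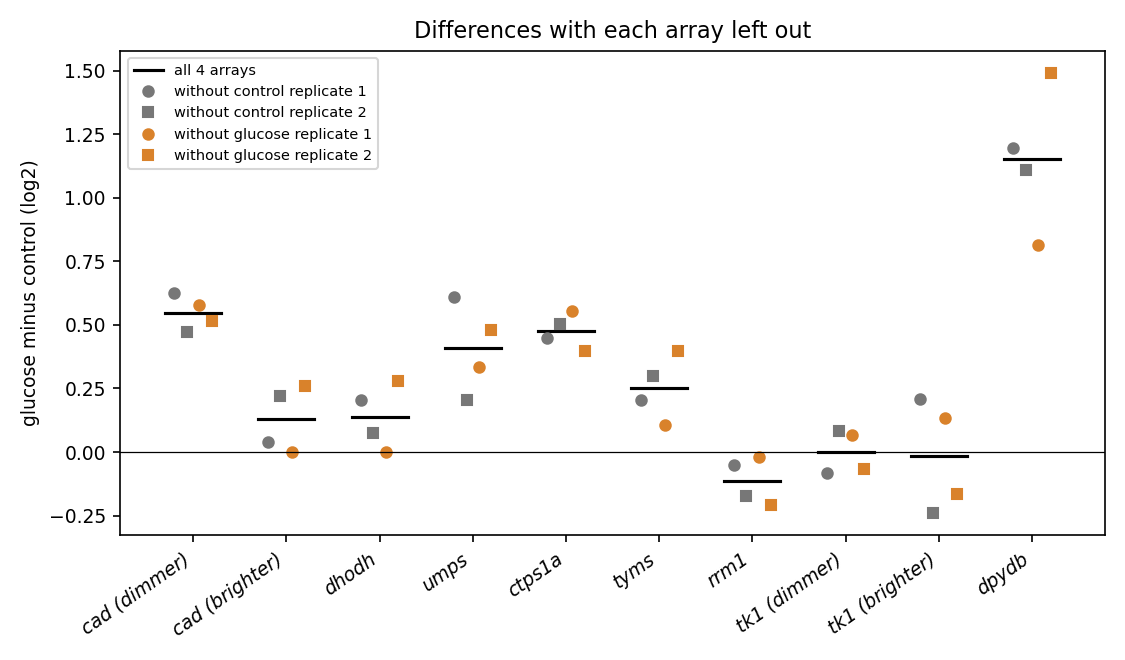
Glucose minus control (log2) for each member probe set with all 4 arrays (black bar) and with each array left out (grey for a control array, orange for a glucose array, circles for replicate 1 and squares for replicate 2). The dpydb values stay between 0.81 and 1.49, the ctps1a values between 0.40 and 0.55, and the values of the brighter tk1 probe set fall on both sides of 0.

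None of the other genes listed under pyrimidine breakdown passed the test, where 2.00% of all tested probe sets passed in either direction. At that share a list this short would mostly have 0 passing, so the count does not set dpydb apart. Of 5 found from a list of 13, 3 had higher means, with a median difference of 0.0763. The list included the 5′ nucleotidase gene nt5c2a, although its enzyme in mammals acts mainly on purine nucleotides. That gene read 551.7 and 586.9 in the controls, against 727.9 and 825.0 with glucose. The difference of 0.45 did not pass (limma with trend, adjusted p = 0.214). For upb1, whose product β-ureidopropionase acts at the end of the same chain as dpydb, the difference was -0.10 with values from 114.8 to 164.3, close to the tag level. The related gene aldh6a1, whose product handles the semialdehyde left after thymine breakdown, differed by -0.11 (adjusted p = 0.764), and nt5c3a by 0.0763 (adjusted p = 0.864).

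Pyrimidine salvage and nucleotide kinase genes were mixed. Of 12 found from a list of 21, 10 were tested. Among them 6 had higher means, 4 lower, and 0 passed in either direction, beside 2.00% of all tested probe sets. The uridine-cytidine kinase gene uck2b came closest, with 261.9 and 365.4 in the controls, against 488.9 and 482.6 with glucose, a 1.57-fold difference (limma with trend, adjusted p = 0.112). Its paralogue uck2a differed by 0.40 (adjusted p = 0.49), and the nucleoside diphosphate kinase gene nme3 by 0.31 (adjusted p = 0.288). In the other direction, the UMP-CMP kinase gene cmpk read 1702 and 1548 in the controls, against 1274 and 1382 with glucose, a difference of -0.29 (adjusted p = 0.386).

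The remaining genes of deoxynucleotide supply did not pass either. Of 5 found from a list of 11, 3 had higher means and the median difference was 0.0364. Of the 5, 0 passed, beside 2.00% of all tested probe sets. The bright dUTPase gene dut, which removes dUTP and yields dUMP for thymidylate synthase, read 3966 and 3990 in the controls, against 3911 and 3783 with glucose, a difference of -0.05 (limma with trend, adjusted p = 0.914). The mitochondrial kinase genes tk2 and dguok differed by -0.42 and 0.68 (adjusted p = 0.569 and 0.808), and dguok was below the tag level on all arrays.

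Folate enzymes feed the carbon that thymidylate synthase and purine synthesis use. Of 5 found from a list of 15, 4 had higher means and 0 passed, beside 50.2% and 2.00% of all tested probe sets. Mitochondrial serine hydroxymethyltransferase, shmt2, read 546.5 and 490.7 in the controls, against 775.6 and 716.2 with glucose. That 1.44-fold difference had an adjusted p of 0.12 in limma with trend. Both glucose arrays were above both controls for 3 of the 5 genes and below both for 1, beside 20.7% and 20.3% of all tested probe sets. The folate enzyme genes mthfd1b and mthfd2, among those above, differed by 0.32 and 0.18, and neither passed (limma with trend, adjusted p = 0.398 and 0.637). Methionine synthase, mtr, lay the other way, at 74.3 and 56.5 in the controls, against 52 and 44.8 with glucose; all 4 values are below the tag level, and the test was not passed (adjusted p = 0.785).

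**Figure D5:**
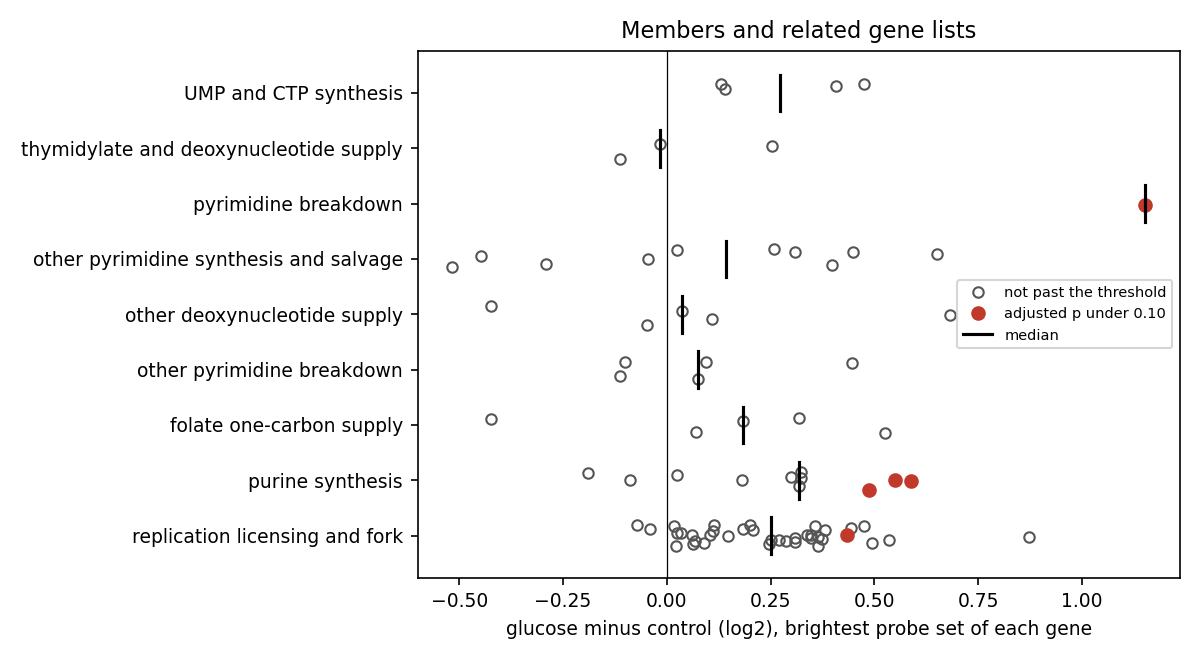
Glucose minus control (log2) at the brightest probe set of each tested gene, by list of pathway genes (marker lists are not plotted), with filled red points for adjusted p under 0.10, open points for the rest and a black bar at the median of each list. Medians of the lists shown run from -0.02 for thymidylate and deoxynucleotide supply to 0.32 for purine synthesis, apart from the single breakdown member dpydb at 1.15.

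The most closely related groups were purine synthesis and DNA replication. Of 11 purine genes, 9 had higher means and 3 rose (paics, atic and gart, by 0.55, 0.59 and 0.49 on the log2 scale). The purine median difference was 0.32, beside 0.14 for the 7 pyrimidine and deoxynucleotide synthesis genes. For the 4 UMP and CTP genes alone the median was 0.27. With the other cad probe set, the median of the 7 was 0.25. Of 37 genes of replication licensing and the replication fork, 35 had higher means and 1 rose, mcm2 by 0.43, with a median of 0.25. Over all tested probe sets, 50.2% had higher means and 1.29% were called higher. Whether the groups differ from one another was not tested. The replication median is given because tyms, rrm1 and tk1 are known in mammals as genes of dividing cells; the part of dividing cells in the values of the synthesis genes was not tested.

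Markers of liver, gut and yolk and markers of red blood cells moved in the same direction as dpydb. For comparison, 50.2% of all tested probe sets had higher means and 1.29% were called higher. Of 20 liver, gut and yolk genes measured, 19 had higher means and 11 rose, with a median difference of 0.50. Their intensities summed to 172794 and 160757 in control replicates 1 and 2, and to 212557 and 201596 in the glucose replicates. None was at 0, but the liver marker fabp10a lay between 7.68 and 51.4, below the tag level on all arrays. Of 14 red cell markers found, 13 were tested; 12 had higher means and 7 rose, with a median difference of 0.54. The intensities of the 14 summed to 64858 and 61095 in control replicates 1 and 2, and to 82559 and 77444 in the glucose replicates. The lowest single value among them was 29.7, so none was at 0, and 11 of the 14 were above the tag level on all arrays. Of the 19 markers across tissues, 10 had higher and 9 lower means, 4 rose and 0 fell, and the median was 0.0742. The 4 that rose are also counted in the liver, gut and yolk list or the red cell list above. The part of these cell types in the dpydb difference was not tested.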

How the data were processed

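Biotin-labelled total RNA, isolated with Trizol per the labels' protocols, was measured on 4 Affymetrix arrays. The deposited values are linear intensities, with 1 value for each probe set and array. GCRMA is named, without a version, in the submitters' processing notes, but the mean after trimming 2% at each end was 500.15 to 500.16 on every array, so the authors' method and any background step stay unknown. Groups and replicate numbers come from the sample titles. The protocol field repeats the glucose text for the controls, and the treatment label was followed.

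Of 15617 probe sets, 115 controls were left out. The platform annotation gives 10795 of the others 1 gene, 135 several and 4572 none. Symbols were updated by gene identifier through the RefSeq table of assembly GRCz12tu (10711 matched), which was used for names only. Probe sets with log2 of at least 5 on 2 or more arrays were tested (13628) by limma 3.58.1 in R 4.3.3 (lmFit, eBayes with trend, no covariates), with a threshold of 0.10. The brightest probe set stands for a gene. Related genes named are those past the threshold or the 4 of smallest p in a list (of the purine and replication lists only those past it, and of the marker lists only counts); rrm2l and fabp10a were named after their values were seen. Precision is limited by the number of arrays. The code was tested on simulated data. Members, lists, tests and the trend were chosen with earlier results of these data known. Figures used Python 3.11.15 and matplotlib 3.10.9.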

Additional observations from a re-analysis of the deposited data

How the results depend on the processing

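The rise of dpydb kept its direction in all 15 other settings (0.81 to 1.49 on the log2 scale) and its call in 13, with an adjusted p up to 0.659. Of those 13 settings, 4 left 1 array in a group, where the spread within that group is not measured. The exceptions were limma without the intensity trend and without moderation; each called 0 probe sets and 0 member genes, with 1152 and 1086 at an unadjusted p under 0.05. Leaving out 1 array moved the 273 calls over the whole array to between 147 (without glucose replicate 2) and 934 (without control replicate 2), the member genes called from 1 to between 1 and 3, the synthesis median of 0.14 to between 0.11 and 0.28, and the excess of dpydb over it to between 0.71 and 1.21. The whole-array count was 174 with no filter, 161 at adjusted p under 0.05, and 586 where an unadjusted p under 0.05 and at least 1.5-fold were asked for. Member genes called were 2, dpydb and ctps1a, with a mean log2 of at least 6, a filter at the tag level, robust eBayes, log2(value + 32), or each gene's probe sets averaged. They were also 2, dpydb and cad, with the other cad probe set, a setting added after seeing the data. The synthesis median was 0.25 with averaged probe sets and with the other cad probe set. The cause of these changes was not tested. The replicate numbers do not pair the arrays by their labels, and the deviations of equal numbers correlated with r = -0.0228 across probe sets; with the replicate number as a block there were 301 calls and 1 member gene. Of the probe sets named above, the dimmer one of tk1 and those of dguok, mtr and fabp10a were below the tag level on all 4 arrays. That of upb1 was above it on 3. Whether brightness limits their results was not tested.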
